A study of Mus musculus with 8 samples.

Results

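Ly6d, Ly6k, Ly6a, Ly6e and Ly6c1 are 5 genes of the Ly6/uPAR family of cell surface proteins, out of 27775 gene rows in single-cell counts from 2 pancreatic tumors of KPC mice. They were picked by symbol, and their levels across the cell groups and carcinoma states of these same tables were already known when they were picked, so the levels below are descriptions and no test was made on them. KPC mice carry conditional alleles, LSL-Trp53R172H/+ among them, which Cre expressed from the Pdx-1 promoter switches on in the pancreatic lineage, and they develop pancreatic ductal adenocarcinoma. The mice were untreated, and the labels give neither their age nor whether the tumors came from separate mice. Tumors were dissociated, and single cells went into 3′ libraries on the 10x Genomics Chromium platform. One tumor was of medium size, with 2812 cells, 20301669 unique molecular identifiers (UMIs, each standing for 1 captured mRNA molecule) and a median of 5456.5 UMIs per cell. The other was of large size, with 1533 cells, 2239012 UMIs and a median of 1037 UMIs per cell. The 4 technical replicates of each tumor were pooled in 1 table and were not told apart, so each size is 1 sample, and size cannot be told apart from any other difference between the 2 tumors. The tables shared 5 cell barcodes. A level is given as CPM, the UMIs of a gene out of 1000000 UMIs of a group of cells, with an exact 95% Poisson interval, and a share of cells with an exact 95% binomial interval. Ratios of levels carry an exact conditional interval, and all of these cover counting error only.

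Ly6/uPAR proteins are small and rich in disulfide bonds that hold a fold of finger-like loops, and most are tethered to the outer leaflet of the plasma membrane by a glycosylphosphatidylinositol (GPI) anchor, with no part inside the cell. Ly6d is known from keratinocytes, where it takes part in adhesion, and from early B lineage cells. Ly6k is best known from the testis, where it is needed on sperm for fertilization, and from human carcinomas. Ly6a is Sca-1, the antigen used to sort mouse stem and progenitor cells, and Ly6e is widely expressed. Both of these are induced by interferon. Ly6c1 encodes a form of the Ly6C antigen and is expressed by endothelial cells among others.

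The 5 genes lie within 287 kb of mouse chromosome 15, in the order Ly6d (chr15:74762056-74763620, minus strand), Ly6k (chr15:74796874-74799986, minus), Ly6e (chr15:74955051-74959905, plus), Ly6a (chr15:74994877-74998031, minus) and Ly6c1 (chr15:75044018-75048830, minus) in the GENCODE M21 annotation of GRCm38. The interval holds 12 protein-coding genes, of which 5 more are family members and 2, Cyp11b1 and Cyp11b2, are steroid synthesis genes of another family. Because 3′ reads can fall on sequence shared by paralogs, the last 500 bases of each coding transcript were compared with all other annotated transcripts in windows of 50 bases. Ly6d, Ly6k and Ly6e shared no window with another gene. Ly6a shared 8.13% of its 812 windows, with I830127L07Rik, Ly6c1, Ly6c2 and Ly6i. Ly6c1 shared 29.2% of its 1667 windows, with Ly6a, Ly6c2 and Ly6i, so its counts are less certain than those of the other members. In the medium size tumor as a whole Ly6c1 had 1894 UMIs, Ly6a had 19293, Ly6c2 had 21 and Ly6i had 8.

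Of the 5 members, 1 was matched in the RefSeq promoter table of build GRCm38.p6, Ly6c1, with 2 promoters, and Ly6d, Ly6k, Ly6a and Ly6e are named only. The promoter that held a match is shown because Ly6c1 had its highest level of the medium size tumor in endothelial-like cells. The window at chr15:75048788-75049087, minus strand, runs from 250 bases before to 50 bases after the annotated start, and capitals mark the only match to the motifs searched, TATAAA.
Ly6c1: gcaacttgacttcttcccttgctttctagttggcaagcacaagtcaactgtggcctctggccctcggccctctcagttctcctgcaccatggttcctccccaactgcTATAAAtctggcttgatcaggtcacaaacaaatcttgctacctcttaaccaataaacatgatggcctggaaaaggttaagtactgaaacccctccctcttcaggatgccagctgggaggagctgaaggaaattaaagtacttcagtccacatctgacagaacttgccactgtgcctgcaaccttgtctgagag
TATAAA, the core of the TATA box, was in 13.6% of the 32851 promoters of the table on either strand. The match in Ly6c1 began at -143 from the annotated start, and whether it acts as a TATA box was not tested. The interferon-stimulated response element (in 3.44% of promoters), the gamma-activated site TTCNNNGAA (8.30%) and the AP-1 site TGANTCA (7.81%), also searched on both strands, had no match in either Ly6c1 promoter, and the other one held no TATAAA.

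Cell groups were called from marker genes that include no Ly6/uPAR gene. In the medium size tumor, 8 of 14 clusters, with 2331 of 2812 cells, were epithelial-like. The others were monocyte/macrophage-like (238 cells), mesothelial-like (74), stromal-like (67) and endothelial-like (38), and a cluster of 64 cells with markers of epithelial and myeloid cells together was left unnamed. Of the UMIs of Ly6d, 95.5% came from epithelial-like cells, and the shares were 94.2% for Ly6k, 93.8% for Ly6a, 93.4% for Ly6e and 87.2% for Ly6c1. Epithelial-like cells made up 82.9% of all cells and held 89.1% of the UMIs of all genes, a share above that of Ly6c1 and below those of the others.

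In epithelial-like cells Ly6d was at 1902 CPM (1882 to 1922), against 185 CPM (158 to 215) in macrophage-like cells. Ly6k was at 88.3 CPM (84.0 to 92.7) against 8.69 (3.75 to 17.1), and Ly6a at 1000.5 CPM (986 to 1015) against 86.9 (68.9 to 108). Ly6e, the member with the most even spread, was at 1068 CPM (1053 to 1083) against 419 (378 to 463). Ly6c1 was at 91.3 CPM (86.9 to 95.8) against 11.9 (5.96 to 21.4). All 5 members were over 2-fold higher in epithelial-like than in macrophage-like cells, as were 26.4% of the 7541 genes compared. Clusters 4 and 8, described below, carried this for Ly6d and Ly6k, which in the other 6 epithelial-like clusters together were at 361 CPM (352 to 371) and 11.7 CPM (10.03 to 13.5). Free RNA from broken cells gives every droplet some UMIs of genes its cell does not express. The 11 epithelial markers stood in macrophage-like cells at 4.96% to 10.7% of their epithelial level, with a median of 6.47%. Ly6d (9.71%), Ly6k (9.85%) and Ly6a (8.69%) were inside that range, while Ly6c1 (13.1%) and Ly6e (39.2%) were above it. The part of free RNA in these levels was not tested. At a clustering resolution of 0.4, clusters were named anew and 7 instead of 8 were epithelial-like. The epithelial-like level of Ly6d was then 2.00 times that of macrophage-like cells instead of 10.3 times. The ratio was 2.44 instead of 10.2 for Ly6k and 3.65 instead of 11.5 for Ly6a. It was 4.73 instead of 7.64 for Ly6c1 and 1.94 instead of 2.55 for Ly6e. Whether the unnamed cluster, with 3087 CPM of Ly6d, joined the macrophage-like group at that resolution was not tested. With each cell classed by its own markers the ratio was 6.68 instead of 10.2 for Ly6k and 4.45 for Ly6c1.

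Outside the epithelium, Ly6c1 had its highest level of the tumor in endothelial-like cells, at 556 CPM (465 to 660), and 65.8% of these 38 cells (48.6% to 80.4%) held a Ly6c1 UMI, against 3.36% of macrophage-like cells, at median depths of 4842 and 3516 UMIs. With each cell thinned to 2500 UMIs the shares were 36.8% and 2.94%. Mesothelial-like cells had 1499 CPM of Ly6a (1380 to 1626), 194 CPM of Ly6c1 (153 to 243) and 1032 CPM of Ly6e (934 to 1138). Their cluster showed 6 of 6 mesothelial markers, but also 6 of 10 stromal markers. That share was at, and not above, the cut past which another class left a cluster unnamed. The part of stromal cells in these levels was not tested. Stromal-like cells, which showed 8 of 10 stromal markers, had 286 CPM of Ly6a (232 to 350). Endothelial-like cells had 705 CPM of Ly6a (602 to 820). Ly6d was at 628 CPM (531 to 738) in endothelial-like and 566 (488 to 653) in stromal-like cells. Both were above the macrophage-like 185 CPM and above epithelial-like clusters 2, 3, 5 and 7. The 10% of cells with the most Ly6d gave 80.4% of its UMIs in endothelial-like and 91.5% in stromal-like cells. The endothelial-like cluster also showed 4 of 11 epithelial markers. In the large size tumor the endothelial-like and stromal-like cells had 0 Ly6d UMIs, with upper limits of 231 and 54.1 CPM. In the medium size tumor endothelial-like, mesothelial-like and stromal-like cells had 51.2 to 58.7 CPM of Ly6k, above the macrophage-like level, from 13 to 23 UMIs each. Of the 6 B cell markers, listed because Ly6d marks early B lineage cells, none was found in 10% or more of the cells of clusters 4 and 8, which carried most of the Ly6d, and they summed there to 2.47 and 5.27 CPM, against 17.0 in the other epithelial-like clusters.

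**Figure D1:**
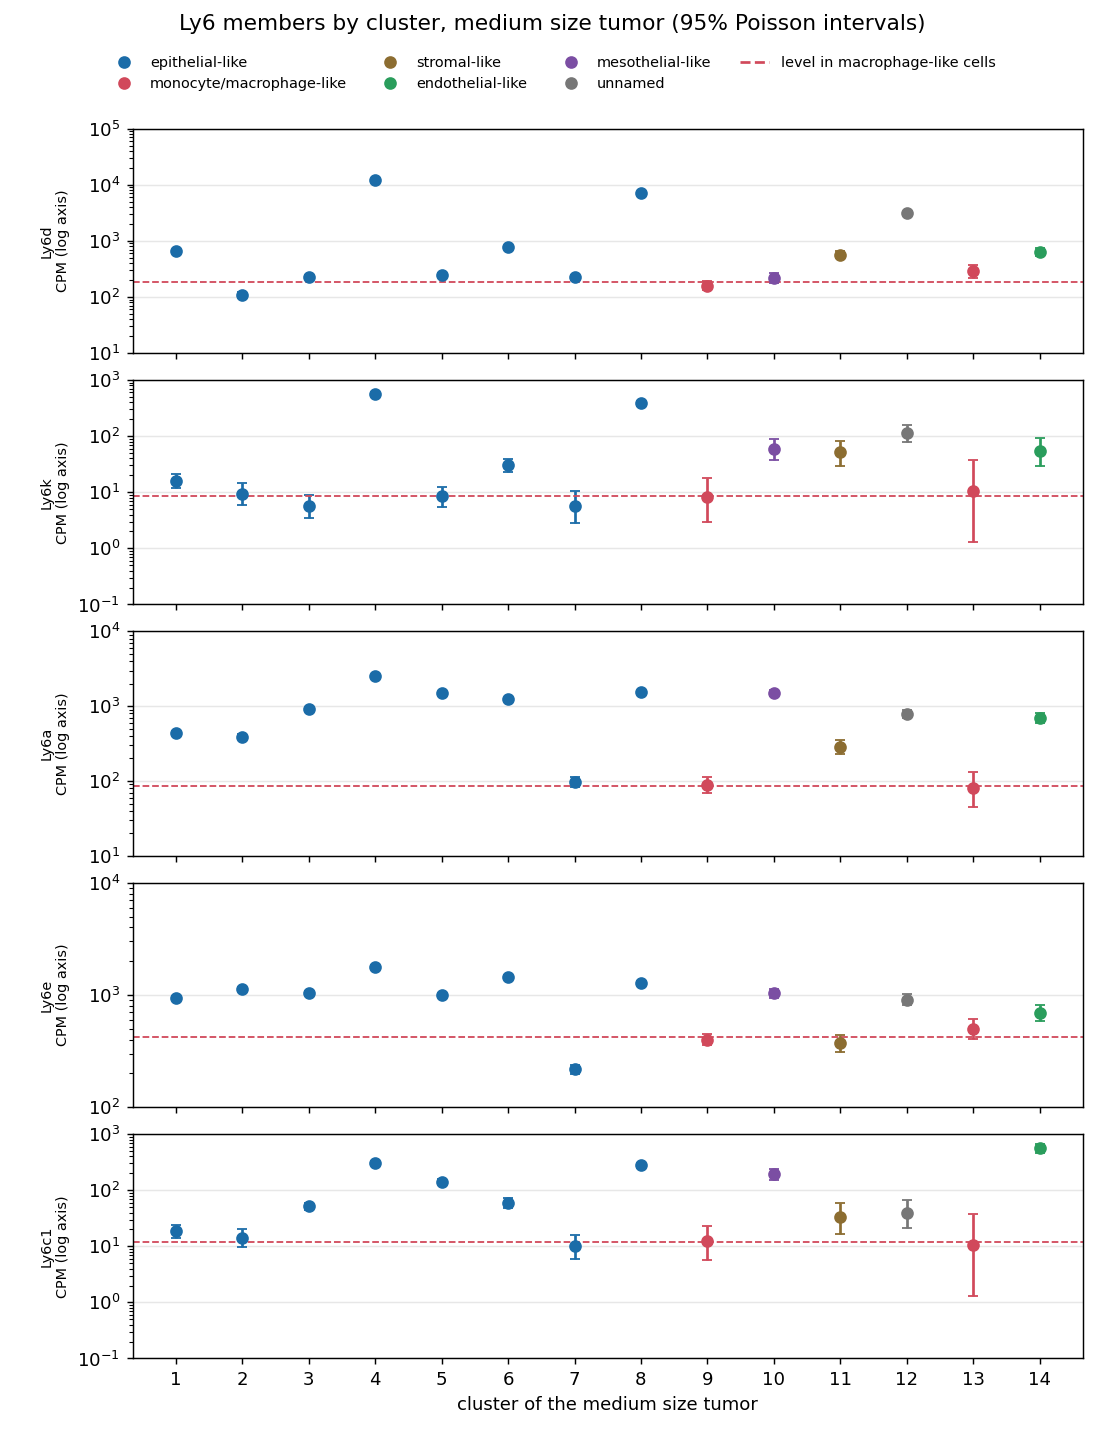
CPM of each member (log axis) in the 14 clusters of the medium size tumor, with exact 95% Poisson intervals, colored by the cell group of the cluster. The dashed line is the level in macrophage-like cells. Ly6d and Ly6k stand out in clusters 4 and 8, at 12094 and 7058 CPM of Ly6d, while Ly6e lies at 941 CPM or more in every epithelial-like cluster except cluster 7.

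Within the carcinoma, 2 of the 8 epithelial-like clusters carried most of the Ly6d and Ly6k. Cluster 4 (292 cells) was led by Tff3, a trefoil factor of mucus, Ly6d itself and Reg1, a secreted lectin, and cluster 8 (227 cells) by Dmbt1, Lcn2 and Sftpd, which encode secreted proteins of mucosal defense. Both had 10 of 11 epithelial markers, but none was among the 10 leading genes of cluster 4, which included the goblet cell genes Tff3 and Spink4. Clusters 4 and 8 together held 80.4% of the Ly6d UMIs of the tumor, 83.8% of those of Ly6k, 45.5% of those of Ly6c1, 31.9% of those of Ly6a and 22.2% of those of Ly6e. The clusters were made from the same counts, and Ly6d and Ly6k are themselves leading genes of cluster 4, so these shares describe the clusters and do not test them.

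Ly6d was at 12094 CPM (11925 to 12264) in cluster 4 and 7058 (6915 to 7202) in cluster 8. The next were cluster 6, led by Krt17, Cldn4 and Slco2a1, at 781 CPM (741 to 823) and cluster 1, led by the gastrokines Gkn1, Gkn3 and Gkn2, at 654 (625 to 684). Cluster 5, led by Yap1, Birc2 and Dcun1d5, had 247 CPM, cluster 3, led by the mitotic genes Ube2c, Birc5 and Cenpf, had 228, and cluster 7, led by Inhba, Bmp2 and Piezo2, had 223, with intervals that overlapped between neighbours. Cluster 2, led by Mcpt8, Cldn6 and Fam213a, was lowest at 109 CPM (96.2 to 124), below the macrophage-like level of 185. A level this low cannot be told apart from free RNA. Cluster 4 was 110.5-fold above cluster 2 (97.4 to 126).

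Ly6k followed the same order at its top. It was at 564 CPM (528 to 602) in cluster 4, 382 (349 to 417) in cluster 8, 30.4 (22.8 to 39.7) in cluster 6 and 16.0 (11.7 to 21.3) in cluster 1, where it lay inside the macrophage-like interval of 3.75 to 17.1 and overlapped cluster 2. The other epithelial-like clusters had 5.77 to 9.38 CPM, with overlapping intervals, about the macrophage-like level of 8.69. Over the 8 epithelial-like clusters Ly6k and Ly6d had a Pearson r of 0.97 on log2(CPM + 10), a description over clusters that share 1 library.

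Ly6a had a wider reach, with 2535 CPM (2458 to 2613) in cluster 4, 1548 in cluster 8, 1499 in cluster 5, 1236 in cluster 6 and 915 in cluster 3. Clusters 8 and 5 had overlapping intervals, as did clusters 1 and 2 below. It fell to 435 CPM in cluster 1, 392 in cluster 2 and 96.8 (83.3 to 112) in cluster 7, where the interval included the macrophage-like level of 86.9. The levels of Ly6c1, which shares 3′ sequence with Ly6a, stood in the same nominal order, though 4 of its 7 neighbouring pairs overlapped. It went from 306 CPM (279 to 334) in cluster 4, 276 in cluster 8 and 142 in cluster 5 to 10.00 (6.02 to 15.6) in cluster 7. The overlapping pairs were clusters 4 and 8, 6 and 3, 1 and 2, and 2 and 7, and the levels of clusters 1, 2 and 7 were near the macrophage-like level of 11.9.

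Ly6e varied least, from 1793 CPM (1728 to 1859) in cluster 4 and 1437 in cluster 6 to 941 in cluster 1, with cluster 7 alone at 218 CPM (197 to 240), against 419 in macrophage-like cells. A UMI of Ly6e was found in 50.9% of the cells of cluster 7 and in 95.1% to 99.3% of the cells of the other 7 epithelial-like clusters, and in 68.9% of macrophage-like cells. Median depths were 6527 UMIs in cluster 7 and 3516 in macrophage-like cells. Cluster 7 was also the epithelial-like cluster with the fewest markers of its class, 3 of 11. At a clustering resolution of 1.2, 12 clusters were epithelial-like, and the highest and lowest of them differed 2.34-fold in Ly6e instead of 8.23-fold. Clusters were named anew at that resolution, and the set of epithelial-like cells changed. Whether the cells of cluster 7 stayed in that set was not tested.

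Set against the other 6 epithelial-like clusters together, clusters 4 and 8 had 41.2-fold more Ly6k (35.3 to 48.5), 27.2-fold more Ly6d (26.4 to 28.0), 5.61-fold more Ly6c1 (5.09 to 6.19), 2.65-fold more Ly6a (2.57 to 2.73) and 1.60-fold more Ly6e (1.55 to 1.66). Among the 7317 genes with at least 200 UMIs in epithelial-like cells, Ly6k ranked 2nd and Ly6d 4th in this ratio, and 4 of the 5 members passed 2-fold, as did 5.97% of these genes. Ly6k in the other 6 clusters, at 11.7 CPM, lay inside the macrophage-like interval of 3.75 to 17.1 CPM. Free RNA and expression cannot be told apart there, so the fold and rank of Ly6k are not a measure of expression alone. All 5 members passed 4-fold between their highest and lowest epithelial-like cluster with 10 CPM added to each level, and 10.2% of genes did. The members were chosen with these values known, so nothing is read from the counts.

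Cells of clusters 4 and 8 expressed several members at once. After each cell was thinned to 2500 UMIs, so that depth was equal, 97.6% of the cells of cluster 4 and 97.8% of those of cluster 8 held a Ly6d UMI, against 17.1% to 41.1% in the other epithelial-like clusters and 23.5% in macrophage-like cells. The share with Ly6k was 45.5% and 43.6%, against 1.02% to 6.36% and 2.10%. Before thinning, median depths were 4329 UMIs in cluster 4, 5264 in cluster 8 and 3516 in macrophage-like cells. At least 3 of the 5 members were found in 93.5% of the cells of cluster 4 and 89.9% of those of cluster 8, in 3.91% of those of cluster 7, and in 6.09% and 9.76% of those of the 2 macrophage-like clusters. In the thinned cells of cluster 7, 50.9% held none of the 5. Within clusters, pairs with Ly6d or Ly6e tell little of detection together, since nearly every cell of clusters 4 and 8 held both. Ly6k and Ly6c1, which were not so saturated, were found together in 16.8% of the thinned cells of cluster 4, against 18.3% expected from their separate shares, and in 20.3% of those of cluster 8, against 18.4%. Over the 8 epithelial-like clusters Ly6a and Ly6c1 were found together in 288 of 2331 cells, or 12.4% against 10.98% expected.

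Ly6d was spread over the cells of its high clusters and concentrated elsewhere. Scaled to 10000 UMIs per cell, the median cell of cluster 4 had 89.5 Ly6d UMIs, with 19.1 at the 10th and 258 at the 90th percentile, and the median cell of cluster 8 had 51.1. The 10% of cells with the most Ly6d gave 34.8% of the Ly6d UMIs of cluster 4 and 36.7% of those of cluster 8. In the other 6 epithelial-like clusters such cells gave 63.3% to 79.7%, and 1 cell of cluster 3 alone held 155 of its 791 Ly6d UMIs. In the unnamed cluster with epithelial and myeloid markers, Ly6d was at 3087 CPM (2900 to 3283), the median cell had 2.56 UMIs per 10000 and the 90th percentile was 114. Whether cells of different kinds were captured together in that cluster was not tested.

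The genes whose level followed a member most closely over the 14 clusters of the medium size tumor, among those with at least 1000 UMIs, were Mmp7, Tff3 and Dmbt1 for Ly6d, with a Pearson r of 0.95, 0.93 and 0.93 on log2(CPM + 10). These encode matrilysin, a trefoil factor and a secreted scavenger receptor. For Ly6k they were Ly6d, 2410015M20Rik and Reg3g, with r of 0.92, 0.90 and 0.90. Over the 10 clusters of the large size tumor, Ly6k with Ly6d had an r of 0.81, and the other 5 of these 6 pairs had an r of 0.04 to 0.34. Ly6a was most like Glo1, Slc4a4 and Polr1c (0.90, 0.87 and 0.86), with r of -0.26, -0.21 and 0.63 in the large size tumor. Ly6e was most like Slc4a4, Krt19 and F3 (0.88, 0.87 and 0.87), with -0.08, -0.65 and -0.81 there. Ly6c1 was most like Glo1, Cdc26 and Gltscr2 (0.82, 0.82 and 0.80), with 0.15, 0.88 and -0.26 there.

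Genes of pathways that bear on the family were set beside the members in clusters 4 and 8 against the other epithelial-like clusters. Of 22 interferon-stimulated genes, 4 had enough UMIs to compare, of which 1, the immunoproteasome subunit Psmb8, was over 2-fold higher and 2 were over 2-fold lower, with a median log2 ratio of -0.62. Those were Ifitm3, an antiviral membrane protein, at 57.4 against 251 CPM, and the tetherin gene Bst2 at 19.3 against 66.2 CPM. Ifi27l2a, also interferon-stimulated, was at 8.49 against 5.94 CPM. None of the 6 interferon receptor and signal genes compared passed 2-fold (median log2 ratio -0.06), with Ifngr1 at 87.2 against 108 CPM, Jak1 at 79.8 against 53.1 and Ifngr2 at 56.0 against 55.6. None of 13 genes of GPI anchor assembly and transfer did either (median 0.07), with Pigp at 95.7 against 60.3 CPM, Pgap1 at 38.4 against 63.4 and Gpaa1 at 37.0 against 36.5. Over all 7317 genes compared, 437 were over 2-fold higher and 574 over 2-fold lower, with a median log2 ratio of -0.09.

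Markers of stratified epithelium, where Ly6d is also expressed, summed over 13 basal and squamous genes to 248 CPM in cluster 4 and 609 in cluster 8, against 721 in the other epithelial-like clusters. Of these genes, 4 were compared, with a median log2 ratio of -1.81. Sfn, encoding the 14-3-3 protein stratifin, was higher at 295 against 91.2 CPM, and the cornified envelope genes Sprr1a (87.2 against 568 CPM) and Ivl (5.43 against 36.2 CPM) were lower. Krt5 and Trp63, which mark basal cells, and Krt6a had 0 UMIs in both clusters, and Krt5 also in the others. The 7 goblet markers summed to 5944 CPM in cluster 4 and 2213 in cluster 8, against 138 in the other epithelial-like clusters, with Zg16 at 0 in all 3 groups and Muc2 at 0 in cluster 4. The part of these cells in the Ly6 levels was not tested.

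Mesenchymal genes were low where Ly6d was high, with 6 of the 8 compared over 2-fold lower in clusters 4 and 8 and none higher, and a median log2 ratio of -3.09. So were 8 of 12 S phase and mitosis genes, with none higher and a median of -1.10, where 574 of all 7317 genes were over 2-fold lower. The epithelial-like cells were therefore also ranked by their mesenchymal share, the UMIs of 13 mesenchymal genes such as Vim out of those genes and the 11 epithelial markers, and divided into 5 bins of 466 or 467 cells. From the lowest to the highest bin, Ly6d was at 4333, 2887, 1333, 1044 and 665 CPM, a 6.52-fold decrease (6.24 to 6.81), and Ly6k at 217, 133, 50.6, 46.3 and 33.5 CPM, a 6.49-fold decrease (5.34 to 7.94). Ly6a was at 1471 CPM in the lowest and 655 in the highest bin, with 930 to 1027 between. Ly6e went from 1273 CPM in the lowest to 690 in the highest bin, with overlapping intervals in the lowest 2 bins, and Ly6c1 lay at 128 CPM in the lowest and 78.5 to 90.4 in the other bins. Median depth moved with the ranking, from 5025 UMIs per cell in the lowest bin to 7158.5 in the next to highest and 6234 in the highest. Of the 5 members, 3 were over 2-fold lower in the highest than in the lowest bin, as were 6.4% of the 4138 genes compared. With every cell thinned to 2500 UMIs the log2 decrease was 2.28 for Ly6d, 1.63 for Ly6k instead of 2.70, and 0.97 for Ly6a, so that 2 members passed 2-fold. With 3 bins 2 passed as well, with 0.63 for Ly6a. So it was at clustering resolution 1.2, with 0.53 instead of 1.17 for Ly6a, 0.28 instead of 0.88 for Ly6e and 0.22 instead of 0.64 for Ly6c1. The set of epithelial-like cells was not the same at that resolution.

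This gradient rested in part on clusters 4 and 8. With both left out, Ly6d was 2.15-fold lower in the highest bin (1.98 to 2.33), Ly6e 1.81-fold lower (1.70 to 1.92) and Ly6a 1.47-fold lower (1.37 to 1.57). Ly6k was at 7.62 CPM in the lowest and 8.53 in the highest bin, levels about that of macrophage-like cells, and Ly6c1 was 1.81-fold higher in the highest bin (1.40 to 2.35) instead of lower.

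**Figure D2:**
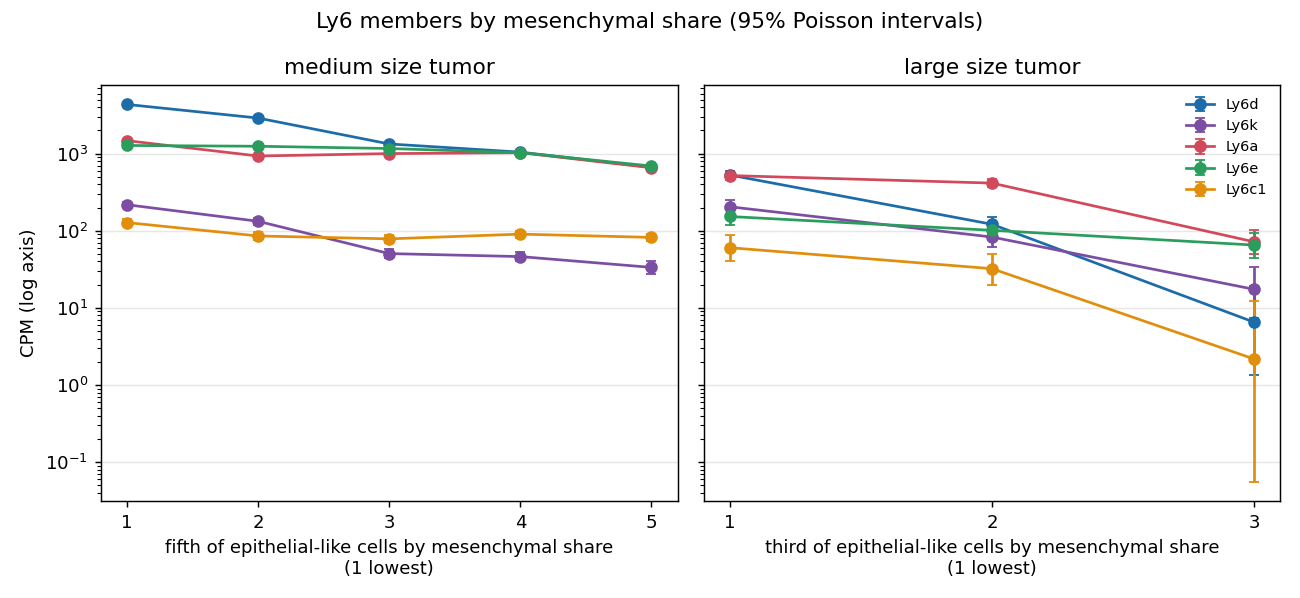
CPM of each member (log axis) with exact 95% Poisson intervals in epithelial-like cells ranked by mesenchymal share, in 5 bins for the medium and 3 bins for the large size tumor. In the medium size tumor Ly6d goes from 4333 to 665 CPM and Ly6e from 1273 to 690, and in the large size tumor Ly6d goes from 528 to 6.52 CPM.

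In the large size tumor, 5 of 10 clusters, with 850 of 1533 cells, were epithelial-like. Further clusters were enterocyte-like (214 cells) and goblet-like (155), macrophage-like (253), stromal-like (50) and endothelial-like (11). Depth was lower here, and a gene with 0 UMIs in the endothelial-like cells could still stand at 188 CPM, the level that 3 counts would give.

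Ly6d in this tumor was split between a very small group and the rest. Cluster 9, with 17 cells led by Upk3a, Sprr2f and Ly6d, had 156 Ly6d UMIs, or 8408 CPM (7141 to 9836), and every one of its cells held at least 1. These 17 cells gave 42.4% of all 368 Ly6d UMIs of the tumor. They also carried Krt15, and their 13 basal and squamous genes summed to 4204 CPM, with Krt14, Krt17 and Ivl among the 7 at 0. Krt5, Krt6a and Trp63 were detected in these cells. All of these were at 0 in both clusters of the medium size tumor that carried most of its Ly6d. Upk3a encodes a uroplakin and Sprr2f a small proline-rich protein of surface epithelium. No epithelial marker of the list was among the 10 leading genes of cluster 9, although 7 of 11 were detected, and the 6 B cell, 6 T cell and 11 endothelial markers were at 0, at a depth where 3 counts would be 162 CPM. The 7 granulocyte markers summed to 539 CPM, with 5 at 0, and the 11 macrophage markers to 269 CPM, with 9 at 0. Ly6k had 4 UMIs there, Ly6a had 10, and Ly6e and Ly6c1 had 0. Outside cluster 9, Ly6d was at 364 CPM (298 to 441) in the gastrokine-led cluster 7, 243 (182 to 318) in cluster 3, led by Onecut2, 212 (150 to 291) in the goblet-like cluster, where 7 of 155 cells held all 38 UMIs, and 21.3 (11.3 to 36.4) in the mitotic cluster 5. Cluster 1, led by Ggct, Ramp1 and Ank and with 3 of 11 epithelial markers, had 1 Ly6d UMI in 279 cells, and the macrophage-like cells had 1 in 253 cells.

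Ly6k was at 249 CPM (194 to 314) in the gastrokine-led cluster 7 and at 216 (58.7 to 552) in cluster 9, which overlapped. In cluster 7, 37.7% of the 138 cells (29.6% to 46.3%) held a UMI, against 0.791% of macrophage-like cells, at median depths of 1884 and 688 UMIs. Clusters 3 and 5 had 105.5 CPM (66.9 to 158) and 93.4 (70.8 to 121), which overlapped, and cluster 1 had 4.43 (0.54 to 16.0). The enterocyte-like cells had 0 UMIs of Ly6k, where 3 counts would be 15.3 CPM, and the macrophage-like cells had 2.

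Ly6a was at 651 CPM (588 to 718) in the mitotic cluster 5 and at 539 (258 to 991) in cluster 9, which overlapped. Cluster 5 held 67.4% of the Ly6a UMIs of the tumor, and Ly6a was the 2nd of the leading genes of that cluster. The stromal-like cells followed among the other cell groups, at 440.2 CPM (297 to 628). Macrophage-like cells had 0 Ly6a UMIs, where 3 counts would be 15.3 CPM. Ly6c1 was at 313 CPM (102 to 730) in the endothelial-like cells, from 5 UMIs, and at 132 (60.4 to 251) in the stromal-like cells. Ly6e was at 66.5 CPM (44.9 to 94.9) in cluster 1 and 158 (115 to 211) in cluster 7, which did not overlap, at 110.1 and 113 in clusters 3 and 5, 102 (62.3 to 157) in macrophage-like cells, and 5.09 (0.13 to 28.4) and 5.59 (0.14 to 31.1) in enterocyte-like and goblet-like cells, from 1 UMI each.

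Across the mesenchymal share of this tumor, divided into 3 bins, Ly6d was at 528, 121 and 6.52 CPM, Ly6k at 205, 82.9 and 17.4, Ly6a at 519, 414 and 71.7, Ly6e at 153, 101 and 65.2, and Ly6c1 at 60.3, 32.2 and 2.17 CPM. The intervals of the lowest and highest bin did not overlap for any of the 5, but those of neighbouring bins overlapped in the first step for Ly6a and Ly6c1 and in both steps for Ly6e. The highest bin held 3 UMIs of Ly6d and 1 of Ly6c1. Of the 620 genes with at least 200 UMIs in the lowest and highest bin together, 4.52% were over 2-fold lower in the highest, Ly6d and Ly6a among them, and the other 3 members had fewer UMIs. Median depth was 1226.5, 1912 and 1351 UMIs per cell from the lowest to the highest bin. The decrease was 7.24-fold for Ly6a (5.02 to 10.8) and 2.35-fold for Ly6e (1.51 to 3.72). Without cluster 9, an alternative added after seeing the data, Ly6d was at 306 CPM in the lowest and 6.60 in the highest bin, and Ly6a and Ly6e decreased 7.83-fold and 2.44-fold.

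**Figure D3:**
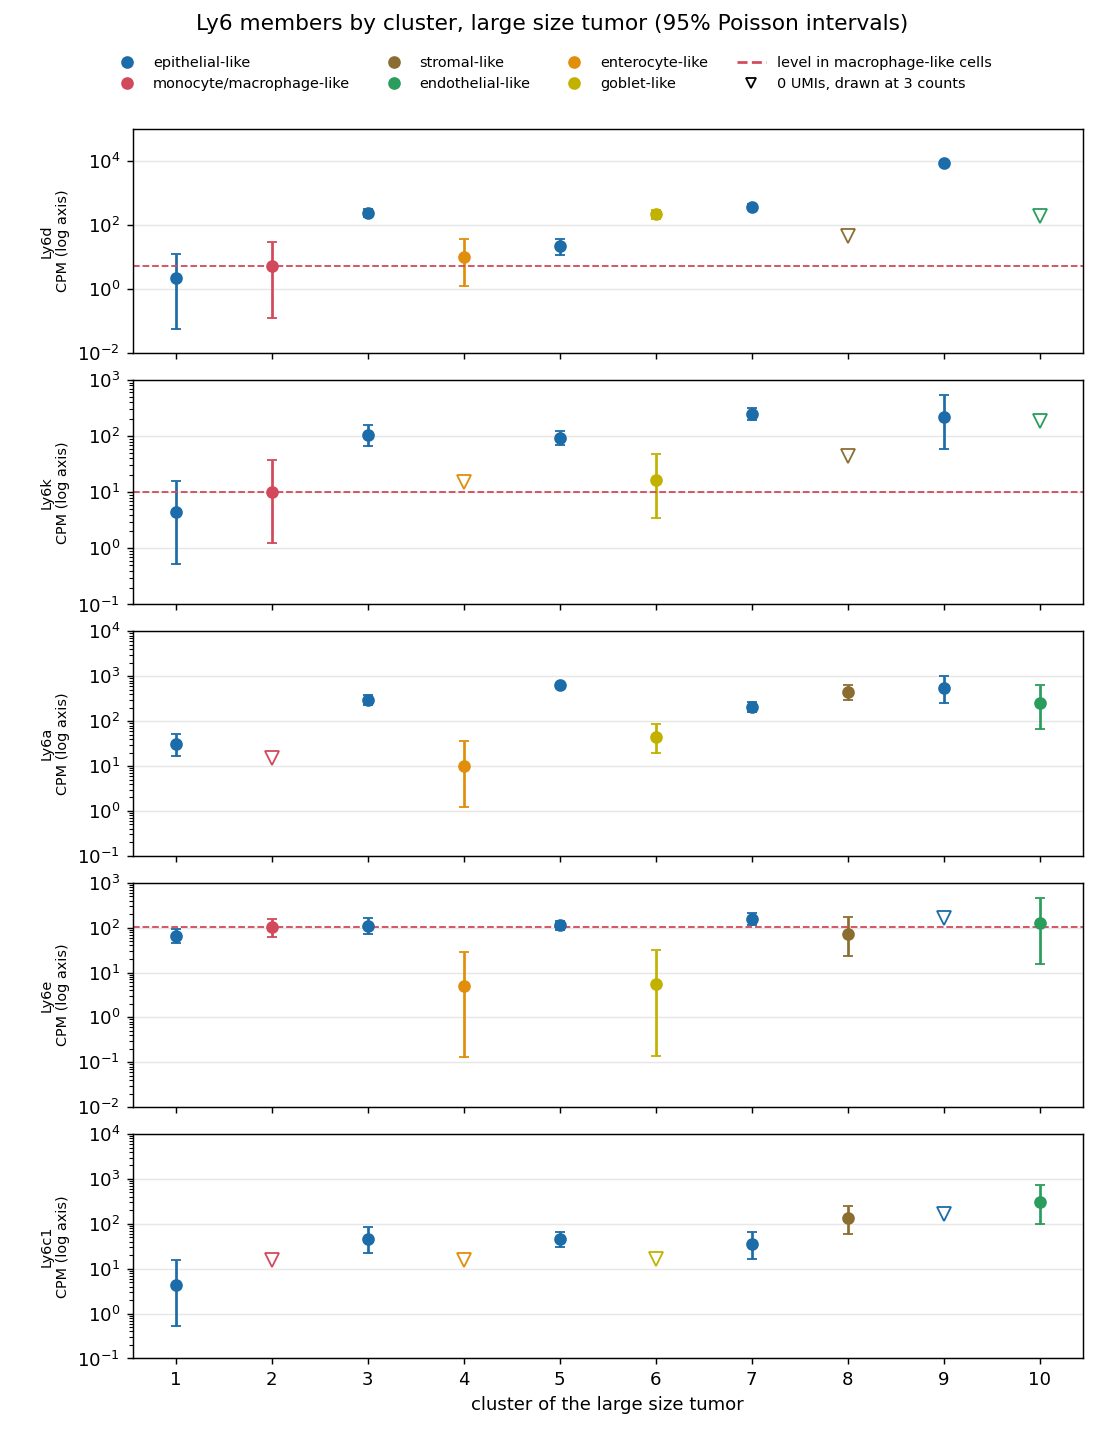
CPM of each member (log axis) in the 10 clusters of the large size tumor, with exact 95% Poisson intervals, colored by cell group. Open triangles mark 0 UMIs and are drawn at the level of 3 counts, and the dashed line is the macrophage-like level where it is above 0. Ly6d stands at 8408 CPM in cluster 9 and Ly6k at 249 CPM in cluster 7, with overlapping intervals for clusters 7 and 9.

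Between the tumors, 2 pairs of clusters led by like genes, and the pair with the fewest epithelial markers, were set side by side first, because the epithelial-like class contains medium cluster 4, with the goblet markers Tff3 and Spink4 among its leading genes, and large cluster 9, with the basal marker Krt15 among them. In the gastrokine-led clusters, with 452 cells in the medium and 138 in the large size tumor, Ly6k was at 16.0 and 249 CPM, 15.6-fold higher in the large size tumor (10.6 to 23.0). In the mitotic clusters, with 293 and 190 cells, it was at 5.77 and 93.4 CPM, 16.2-fold higher (9.58 to 28.5). Both medium values lay within the interval of macrophage-like cells of that tumor, 3.75 to 17.1 CPM, where free RNA and expression cannot be told apart, so neither fold is a measure of expression alone. After every cell was thinned to 500 UMIs, 0.44% and 9.42% of the gastrokine-led cells held a Ly6k UMI, and 0% (0% to 1.25%) and 5.79% of the mitotic cells. Of the macrophage-like cells 0.42% and 0% did. In the clusters with 3 epithelial markers, medium 7 and large 1, Ly6k was at 5.79 and 4.43 CPM from 11 and 2 UMIs, and a difference was not detectable at this depth.

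Ly6e went the other way in all 3 pairs. It was at 941 and 158 CPM in the gastrokine-led clusters, 5.97-fold lower in the large size tumor (4.45 to 8.20), at 1051 and 113 CPM in the mitotic clusters, 9.29-fold lower (7.32 to 11.97), and at 218 and 66.5 CPM in the clusters with 3 epithelial markers, 3.28-fold lower (2.26 to 4.92). The share of mitotic cells with a Ly6e UMI, at 500 UMIs per cell, was 40.3% and 5.79%, and of macrophage-like cells 16.4% and 4.35%. Macrophage-like cells differed as well, at 419 and 102 CPM. So did stromal-like cells, at 371 and 73.4 CPM, and endothelial-like cells, at 692 and 125 CPM, from 5 and 2 UMIs in the large size tumor. In the clusters with 3 epithelial markers both Ly6e values were below the macrophage-like levels, so free RNA and expression cannot be told apart in that ratio.

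Ly6d was at 654 and 364 CPM in the gastrokine-led clusters, 1.80-fold lower in the large size tumor (1.47 to 2.21), and at 228 and 21.3 CPM in the mitotic clusters, 10.7-fold lower (6.23 to 20.2). The medium value of the mitotic pair was near the macrophage-like level of 185 CPM in that tumor, which in the large size tumor was 5.10, so free RNA and expression cannot be told apart in that ratio. The same holds for the clusters with 3 epithelial markers, at 223 CPM and 2.22 CPM from 1 UMI, a 101-fold difference (17.97 to 3986). Ly6a was at 435 and 210.1 CPM in the gastrokine-led clusters, 2.07-fold lower (1.60 to 2.73), at 915 and 651 CPM in the mitotic clusters, 1.41-fold lower (1.27 to 1.56), and at 96.8 and 31.03 CPM in the clusters with 3 epithelial markers. Ly6c1 was at 18.7 and 35.0 CPM, 51.4 and 45.9 CPM, and 10.00 and 4.43 CPM, with intervals of each ratio that included 1.

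**Figure D4:**
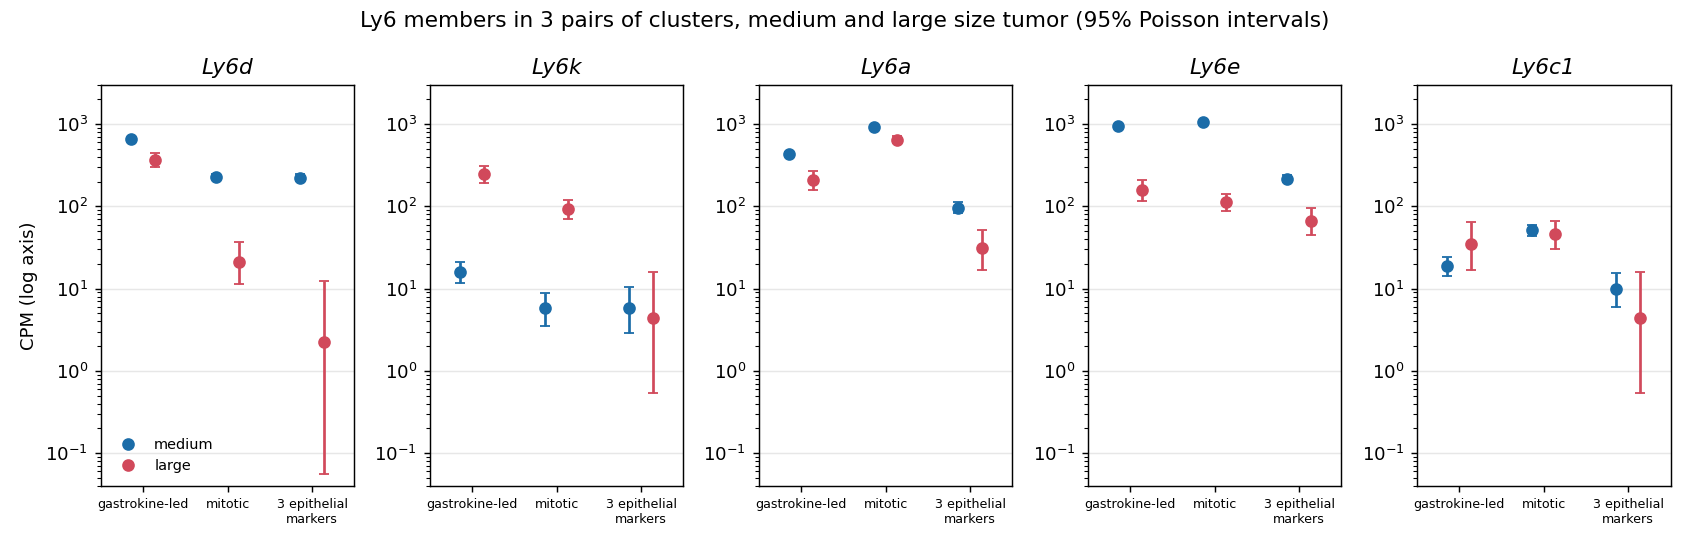
CPM of each member (log axis) with exact 95% Poisson intervals in 2 pairs of clusters led by like genes and the pair with 3 epithelial markers, in the medium (blue) and large (red) size tumor. Ly6k is higher in the large size tumor in the gastrokine-led pair (16.0 and 249 CPM) and the mitotic pair (5.77 and 93.4 CPM), and Ly6e is lower in all 3 pairs.

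Counted with 1 UMI added to each sum, 2 of the 5 members (Ly6a and Ly6e) were over 2-fold lower in the gastrokine-led pair, against 19.2% of 2232 genes, and Ly6k was over 2-fold higher, against 6.9%. Ly6c1 passed 2-fold there only through the added UMI, from a fold of 1.87 (0.85 to 3.71). In the mitotic pair, 2 members (Ly6d and Ly6e) were over 2-fold lower, against 16.1% of 2700 genes, and Ly6k was over 2-fold higher, against 5.85%. In the clusters with 3 epithelial markers, 3 members (Ly6d, Ly6a and Ly6e) were over 2-fold lower, against 21.2% of 1772 genes. These shares are over genes with at least 200 UMIs in a pair, which Ly6k (47 and 71 UMIs in the gastrokine-led and 20 and 57 in the mitotic pair) and Ly6a in the last pair (184 and 14) did not reach. Ly6d and Ly6a of medium cluster 7 were at about the macrophage-like level, and Ly6e was below it. The 2 libraries differed in depth, and what part depth or dissociation had in these ratios was not tested.

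Over all epithelial-like cells without the enterocyte-like and goblet-like clusters, Ly6k was at 88.3 CPM in the medium and 99.2 in the large size tumor, a log2 ratio of 0.18. Its UMIs came mainly from clusters 4 and 8 in the medium size tumor and from clusters 7 and 5, with 43.8% and 35.2% of them, in the large size tumor. Without medium cluster 4 and large cluster 9 the log2 ratio of Ly6k was 1.24. The log2 ratios of the others were -3.32 for Ly6e, -3.20 for Ly6d, -1.54 for Ly6a and -1.50 for Ly6c1, and without those clusters -3.21, -3.03, -1.31 and -1.11. In all, 4 of the 5 members were over 2-fold lower in the large size tumor, as were 18.4% of the 7568 genes compared. The median log2 ratio of all these genes was -0.14.

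Of the other family genes listed, 33 had a row, 7 of them with at least 100 UMIs in a tumor. Psca, a GPI-anchored protein named after its discovery in prostate, had 6354 UMIs in the medium size tumor and did not share the order of Ly6d, with 564 CPM in cluster 5, 475 in cluster 1, 443 in cluster 3, 370 in cluster 2, 331 in cluster 4, 135 in cluster 8, 59.1 in cluster 6 and 31.05 in cluster 7. In the large size tumor it was at 593 CPM in the 17 cells of cluster 9 and 28.1 CPM over all cells. Plaur, the urokinase receptor, was at 129 to 357 CPM in all epithelial-like clusters of the medium size tumor, highest in cluster 7, and at 302 CPM in macrophage-like cells. Gpihbp1, which anchors lipoprotein lipase on capillaries, was at 654 and 501 CPM in the endothelial-like cells of the medium and large size tumor, and at 0.39 CPM and 0 UMIs in the epithelial-like cells. Lypd8, a gut epithelial protein that binds flagella, had 64 UMIs in the medium and 614 in the large size tumor, where it was at 1587 CPM in goblet-like and 1411 in enterocyte-like cells and 26.5 in the other epithelial-like cells. 2010109I03Rik, in the same chromosomal interval as the 5 members, was at 27.2 and 42.2 CPM in clusters 4 and 8 of the medium size tumor and 6.47 CPM in the other epithelial-like clusters. It was higher in the unnamed cluster, at 94.5 CPM with 30 of its 31 UMIs in 1 cell, and in the goblet-like and enterocyte-like cells of the large size tumor, at 140 and 102 CPM, with 17 of the 25 goblet-like UMIs in 1 cell. Lynx1 and Cd59a stayed at or below 21.1 and 42.2 CPM in every cluster of the medium size tumor.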

How the data were processed

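Single-cell RNA of 2 KPC tumors was measured with 10x Genomics Chromium 3′ v2 chemistry. Per the labels and the study's methods, the authors made the tables with Cell Ranger on mm10 and deposited UMI counts per gene symbol and cell barcode, whole numbers without normalization, with the 4 technical replicates of a tumor pooled. The Cell Ranger version and annotation are not given in the sources used here. One allele of the genotype is not reported here. The members and lists were chosen with earlier results of these data known. Each tumor was clustered on its own with Seurat 5.3.0 in R 4.3.3 (log normalization to 10000, 2000 variable genes, 10 principal components, resolution 0.8). A cluster took the class with the largest share of markers detected, at least 3, each in at least 10% of its cells and at 25% or more of its highest level, and stayed unnamed where another class passed 60%. An epithelial-like cluster with over 60% of the enterocyte or goblet markers took that name instead. These thresholds were set after the values were seen. Clusters 4 and 8, the matched pairs and the cut of 10 CPM followed the values too. Genes named are the members, family genes with at least 100 UMIs, the 3 most like genes of each member, the first 3 leading genes of clusters, and the 3 pathway genes with most UMIs. Further genes (Psmb8, the Krt, Trp63, Zg16, Muc2 and Spink4 markers, Cyp11b1, Cyp11b2, Ly6c2 and Ly6i) were named after their values were seen. Scrublet in scanpy 1.11.5 called 0 doublets in the medium and 9 (0.587%) in the large size tumor, where cells were kept. Ratios and intervals used Python 3.11.15, scipy 1.17.1 and numpy 2.4.6, tested on simulated data. No cell was filtered and thinning left out none, but 11 epithelial-like cells of the large size tumor without a UMI of the listed genes could not be ranked by mesenchymal share. With 1 sample a tumor, no p-value was computed.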

Additional observations from a re-analysis of the deposited data

How the results depend on the processing

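No paired analysis was possible because the technical replicates of each tumor were pooled and not told apart, and with 1 sample a size no replicate could be left out. Counts of members were recomputed at clustering resolutions 0.4 and 1.2, with 20 principal components, without Ly6/uPAR genes among the variable genes, and, where they applied, with cells classed by their own markers, without the highest 5% of Scrublet scores, thinned to 2500 UMIs, in 3 bins, with TMM scaling (edgeR 4.0.16), with intestinal-like clusters, over all cells, and without medium cluster 4 and large cluster 9, which was added after seeing the data. The number of members over 2-fold lower in the large size tumor was 4 under all 10 alternatives. The number over 2-fold higher in epithelial-like than macrophage-like cells was 4 or 5, and so was the number past 4-fold between epithelial-like clusters. With clusters 4 and 8 left out, also added after seeing the data, 1 member instead of 3 was over 2-fold lower in the highest mesenchymal bin. The log2 ratio of lowest over highest bin then became -0.16 for Ly6k and -0.85 for Ly6c1, from 2.70 and 0.64, and the cause was not tested. Genes past 2-fold between the tumors numbered 1811, or 3500 and 661 with at least 20 and 1000 UMIs, since more or fewer genes were compared. TMM scaling moved the share of these that were lower from 76.8% to 69.6%, still within 10 percentage points, and the log2 ratios of members by 0.09 at most. The ratio of Ly6k between the highest and lowest epithelial-like cluster was 75.0 to 190 and that of Ly6d 83.4 to 115. At resolution 1.2 the ratio of Ly6a was 12.4 instead of 26.2, and 2 members passed 2-fold between mesenchymal bins, as with thinned cells and with 3 bins. Clusters were named anew at each resolution, so the set of epithelial-like cells changed as well. Depth limits all values of the large size tumor.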
